A study of Mus musculus with 6 samples.

Results

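The genes described here are Trp53, which encodes the transcription factor p53, and 9 genes that p53 is known to switch on directly: Mdm2, Ccng1, Phlda3, Sesn1, Rrm2b, Tigar, Zmat3, Trp53inp1 and Cdip1. They were taken by symbol from a count table of 55377 genes, and all 10 were found once each. All 10 passed the filter on low counts, which kept 14683 genes for testing. The siIRF1 group was made of primary mouse articular chondrocytes given an siRNA against Irf1, which the labels call Irf1-knockdown, and the siNC group was made of the same kind of culture given a control siRNA. Both groups had 3 RNA-seq libraries from RNA taken 36 h after transfection, and no other agent is named for either. Strain, age and siRNA sequence: not given in the sources used here. The labels also do not say whether the 3 replicates of a group came from separate animals or cultures, so a p-value here reflects the spread among these libraries alone, and that spread may be technical.

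p53 is a transcription factor that is made continuously and destroyed by the ubiquitin ligase Mdm2, and DNA damage and other stresses block that destruction. Stabilised p53 binds a response element built from a pair of 10-base decamers and raises genes for cell cycle arrest, DNA repair, antioxidant metabolism and cell death, and it also raises Mdm2, which closes a feedback loop. Because p53 is controlled mainly at the protein level, its mRNA level and its activity are separate quantities, and RNA-seq reads the first and the output genes.

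Total counts ranged from 22349142 to 26752065 in siIRF1 libraries and from 28565096 to 29282494 in siNC libraries, so every siIRF1 library was the shallower. Irf1, the target, had 125, 140 and 141 counts in siIRF1 libraries, against 312, 355 and 362 in siNC libraries, and 46.5% of its transcript was left. The summed level of 10 chondrocyte markers was 92600 to 122000 CPM (counts scaled to a common library total with TMM factors) in siIRF1 libraries and 93300 to 122000 CPM in siNC libraries, with 1 of 10 lower. Col2a1 made up most of that sum, at 71709 CPM in siIRF1 libraries and 72194 CPM in siNC libraries on average. The lower marker was Hapln1, the link protein gene, at 915 CPM in siIRF1 libraries and 1877 CPM in siNC libraries on average (log2 fold change −1.04). Fibroblast markers summed to 5490 to 6610 CPM in siIRF1 libraries and 7490 to 9060 CPM in siNC libraries, with 3 of 7 tested lower. Those 3 were the collagen genes Col1a1, Col1a2 and Col3a1, which made up most of the sum. They averaged 2865, 2009 and 582 CPM in siIRF1 libraries, against 4083, 2892 and 854 CPM in siNC libraries. Pdgfra, Lum, Fbln1 and Thy1 were not past the threshold (log2 fold changes 0.01, −0.11, −0.13 and −0.30). Osteoblast markers summed to 112 to 148 CPM in siIRF1 libraries and 176 to 203 CPM in siNC libraries, with 1 of 5 tested lower. The lower one was Alpl (log2 fold change −0.93). Ibsp (−0.70), Runx2 (−0.20), Sp7 (−0.01) and Bglap (1.13) were not past the threshold. Alpl averaged 24.7 CPM in siIRF1 libraries and 47.2 CPM in siNC libraries, and Ibsp averaged 45.3 and 74.2 CPM in the same order. Bglap rested on only 9 to 12 counts per siIRF1 library and 4 to 9 per siNC library. Macrophage markers summed to 21.1 to 21.7 CPM in siIRF1 libraries and 16.2 to 20.5 CPM in siNC libraries. Cd14 and Cd68 were higher, while Lyz2 (log2 fold change −0.69) and Mrc1 (−0.07) were not past the threshold. Adgre1 and Itgam had 0 counts in every library. Ptprc had 2 to 4 counts per siIRF1 library and 4 to 12 per siNC library. Csf1r had 6 to 8 counts per siIRF1 library and 9 to 15 per siNC library, and both were too low to be tested. Endothelial markers summed to 0.872 to 1.44 CPM in siIRF1 libraries and 0.892 to 1.42 CPM in siNC libraries. Skeletal muscle markers summed to 12.1 to 14.1 CPM in siIRF1 libraries and 13.2 to 14.0 CPM in siNC libraries. Acta1 and Tnnt3 made up nearly all of the muscle sum. Ckm, Myh1 and Myod1 had at most 1 count per library, and Myh4 had 9 counts in siIRF1 replicate 2 and 0 elsewhere. The part of these marker shifts in the results below was not tested, and in bulk RNA fewer cells of a type and less RNA per cell cannot be told apart.

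Trp53 itself and its negative regulator Mdm2 did not pass the test, while their downstream genes went separate ways. Rrm2b, Tigar and Zmat3 fell with Irf1 siRNA, to 57.7%, 67.0% and 79.4% of the siNC level. Trp53inp1 and Cdip1 rose, each 1.37-fold, and Ccng1, Phlda3 and Sesn1 did not pass the threshold. A gene was called changed at an adjusted p under 0.05 in the edgeR quasi-likelihood test over all tested genes. By that rule 5 of the 10 genes (50%) were called, against 22.4% of all tested genes. The 3 that fell compare with 12.0% of all tested genes called lower, and the 2 that rose with 10.4% called higher. The 10 genes and the lists below were chosen with earlier results of these data known. Such shares therefore describe the choice and test nothing. The median log2 fold change over the 10 genes was −0.08, against 0.00 over all tested genes. In the same 5 genes the siIRF1 and siNC libraries did not overlap, a separation seen in 38.1% of all tested genes.

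**Figure D1:**
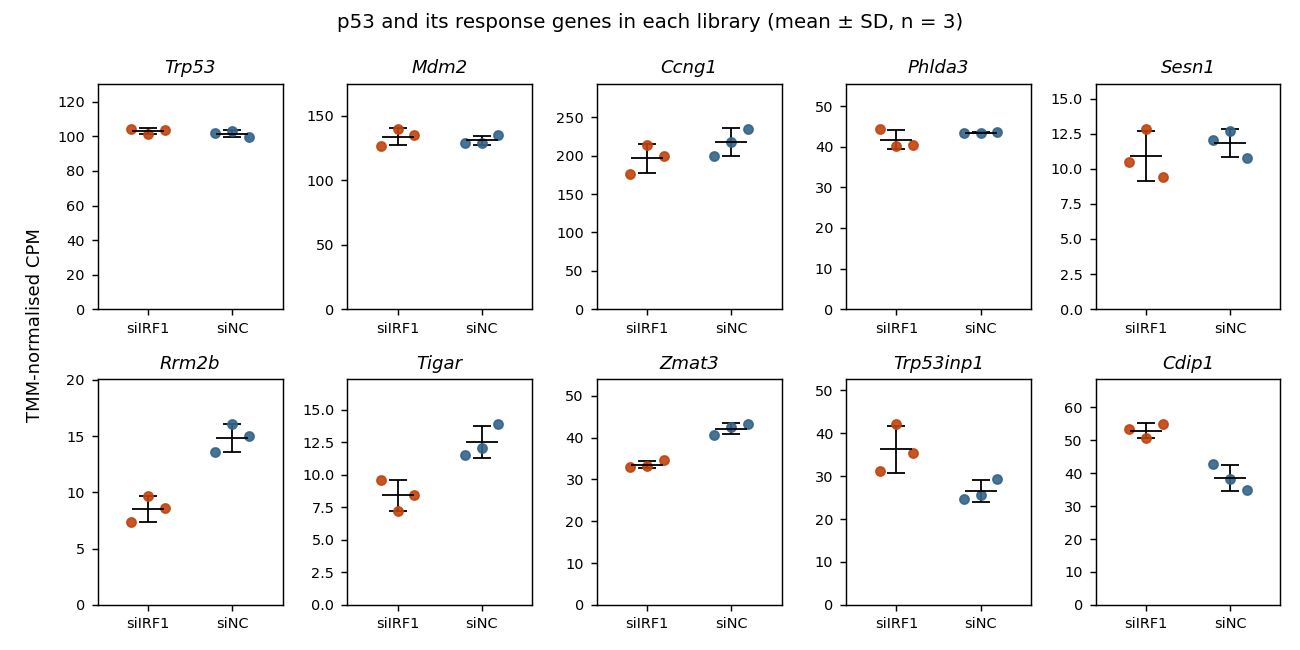
TMM-normalised CPM (vertical axes, each starting at 0) of Trp53 and 9 p53 response genes in the 3 siIRF1 libraries and the 3 siNC libraries; points are libraries, the wide bar is the mean and the whiskers are 1 SD. Rrm2b, Tigar and Zmat3 are lower in every siIRF1 library than in any siNC library, Trp53inp1 and Cdip1 are higher in every one, and the groups of the other 5 genes overlap.

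At the source of the pathway, Trp53 mRNA did not pass the test. Trp53 (ENSMUSG00000059552.14) stood at 104.5, 101 and 104 CPM in siIRF1 libraries, against 102, 103 and 99.5 CPM in siNC libraries. All 6 libraries lay within a few CPM of each other and the groups overlapped. Its log2 fold change was 0.02 (SE 0.05, 95% interval −0.09 to 0.14, adjusted p = 0.812 in edgeR). The processed pseudogene Trp53-ps had 1 to 2 counts in each library.

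Mdm2 (ENSMUSG00000020184.16), the ubiquitin ligase that p53 induces and that destroys p53, stood at 126.5, 140.0 and 135 CPM in siIRF1 libraries, against 129, 129 and 135 CPM in siNC libraries. The lowest and the highest library were both siIRF1. The log2 fold change was 0.03 (95% interval −0.09 to 0.15, adjusted p = 0.731 in edgeR). Ccng1 (ENSMUSG00000020326.8) encodes cyclin G1, which brings a phosphatase to Mdm2 and so acts in the same feedback. It had 177, 214 and 200.0 CPM in siIRF1 libraries, against 199.8, 218 and 235 CPM in siNC libraries. Its groups overlapped through siIRF1 replicates 2 and 3, and the log2 fold change of −0.15 had a 95% interval of −0.31 to 0.01 (adjusted p = 0.18 in edgeR).

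Ccng1 is also the response gene whose promoter sequence held the clearest p53 element, shown here because the decamer pair is how p53 reads these genes. Of the 10 genes, 7 had an entry in the RefSeq promoter table (GRCm38.p6, 250 bases before to 50 after the start), and 2 of these held an element. Rrm2b, Zmat3 and Trp53inp1 had no entry in the table and so were not searched. Sequence outside the window was not searched for any gene. An element was 2 copies of the p53 decamer with a spacer of 0 to 13 bases, the core C and G kept in each and at most 2 other mismatches in all. The decamer reads the same on both strands, so 1 search covers both. The sequences run 5′ to 3′ on the gene's strand, with the decamers in capitals and the rest in lower case.
Ccng1 (chromosome 11, minus strand, element from position −195, 1 mismatch): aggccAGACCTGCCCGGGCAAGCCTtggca
Sesn1 (chromosome 10, plus strand, element from position −186, 2 mismatches): tggGCGCTTGGCCttcAAGCTTGTTTttg
Positions are counted from the annotated start. The same search matched 4.71% of all 27025 genes in the promoter table, and 16.3% of 43 other p53 targets listed below. A match is letters in a window and not a measured binding site, and neither Ccng1 nor Sesn1 passed the threshold with Irf1 siRNA.

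Phlda3 and Sesn1 damp growth signalling. Phlda3 (ENSMUSG00000041801.6), whose product competes with Akt for membrane lipids, stood at 44.4, 40.3 and 40.5 CPM in siIRF1 libraries, against 43.3, 43.3 and 43.6 CPM in siNC libraries. A siIRF1 library was the highest and another the lowest, and the log2 fold change was −0.06 (95% interval −0.19 to 0.08, adjusted p = 0.56 in edgeR). Sesn1 (ENSMUSG00000038332.14), a sestrin that restrains the growth kinase complex mTORC1, stood at 10.5, 12.9 and 9.40 CPM in siIRF1 libraries, against 12.0, 12.7 and 10.7 CPM in siNC libraries. The groups overlapped fully, with a log2 fold change of −0.11 and the widest interval of the 5 genes that did not pass (−0.36 to 0.14, adjusted p = 0.544 in edgeR).

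Rrm2b fell the most. It encodes p53R2, the small subunit of ribonucleotide reductase that supplies deoxynucleotides outside S phase, for repair and for mitochondrial DNA. Rrm2b (ENSMUSG00000022292.17) had 7.36, 9.66 and 8.58 CPM in siIRF1 libraries, against 13.6, 16.0 and 15.0 CPM in siNC libraries. The highest siIRF1 library was well below the lowest siNC library. The means were 8.53 ± 1.15 CPM with Irf1 siRNA and 14.9 ± 1.24 CPM with control siRNA (SD, n = 3 each), a log2 fold change of −0.79 (SE 0.11, adjusted p = 8.51e-05 in edgeR, rank 382 by p among tested genes). These levels rest on 163 to 266 counts per siIRF1 library and 380 to 452 per siNC library. Exons of Rrm2b share 734 bases, and those of Tigar 122, with a gene on the opposite strand that was not among the tested genes.

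Tigar (ENSMUSG00000038028.10) encodes a phosphatase that removes fructose 2,6-bisphosphate, a signal that drives glycolysis, and so favours NADPH production. It had 9.62, 7.23 and 8.41 CPM in siIRF1 libraries, against 11.6, 12.1 and 13.9 CPM in siNC libraries. The gap between the groups was nearly as wide as the range within either. The log2 fold change was −0.58 (SE 0.12, adjusted p = 0.00205 in edgeR), from means of 8.42 ± 1.19 CPM with Irf1 siRNA and 12.5 ± 1.21 CPM with control siRNA (SD, n = 3 each).

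Zmat3 (ENSMUSG00000027663.13), also known as Wig1, encodes a zinc finger protein that binds RNA and acts on splicing and transcript stability. It had 32.9, 33.1 and 34.5 CPM in siIRF1 libraries, against 40.7, 42.6 and 43.1 CPM in siNC libraries. Its fall was smaller than that of Rrm2b or Tigar but the libraries of each group lay close together, with means of 33.5 ± 0.891 CPM and 42.1 ± 1.28 CPM in the siIRF1 and siNC groups (SD, n = 3 each). The log2 fold change was −0.33 (SE 0.06, adjusted p = 0.00135 in edgeR).

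Trp53inp1 and Cdip1, both tied to cell death, moved the other way. Trp53inp1 (ENSMUSG00000028211.12), a nuclear partner of the kinases that modify p53 and an autophagy protein, had 31.3, 42.1 and 35.4 CPM in siIRF1 libraries, against 24.6, 25.5 and 29.4 CPM in siNC libraries. The lowest siIRF1 library lay just above the highest siNC library, and the siIRF1 libraries were the more scattered. It rose by 0.45 in log2 terms (SE 0.10, adjusted p = 0.00551 in edgeR), from means of 36.2 ± 5.44 CPM with Irf1 siRNA and 26.5 ± 2.54 CPM with control siRNA (SD, n = 3 each). Cdip1 (ENSMUSG00000004071.14), a membrane protein of the LITAF family that promotes apoptosis, had 53.5, 50.6 and 54.8 CPM in siIRF1 libraries, against 42.8, 38.2 and 34.8 CPM in siNC libraries. Here the siNC libraries were the more scattered and all 3 lay below the siIRF1 libraries. The log2 fold change was 0.46 (SE 0.07, adjusted p = 3.94e-04 in edgeR). By the GENCODE M21 annotation, exons of Cdip1 share 892 bases with Hmox2 on the opposite strand, and the strand setting of the authors' counting is not given. Hmox2 stood at 33.9 CPM in siIRF1 libraries and 34.9 CPM in siNC libraries on average (adjusted p = 0.677 in edgeR).

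**Figure D2:**
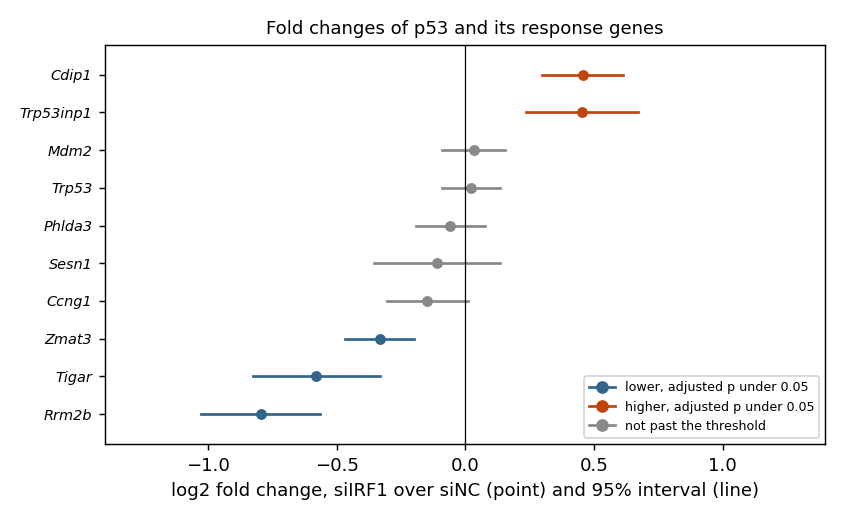
Log2 fold change of siIRF1 over siNC (horizontal axis; points, with lines for 95% intervals from the edgeR fit) for the 10 genes, in order. Trp53 and Mdm2 sit at 0.02 and 0.03 with narrow intervals, Cdip1 and Trp53inp1 near 0.46, and Zmat3, Tigar and Rrm2b at −0.33, −0.58 and −0.79.

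The 5 calls among these 10 genes stayed calls in all 12 alternative fits, which included another test, other scalings and filters and the removal of each library in turn. Without single libraries the log2 fold change of Rrm2b ranged from −0.90 to −0.70, that of Tigar from −0.68 to −0.47, that of Zmat3 from −0.36 to −0.32, that of Trp53inp1 from 0.33 to 0.55 and that of Cdip1 from 0.39 to 0.54. Trp53, Ccng1, Phlda3, Sesn1 and Mdm2 were not called in any of them.

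Each of the 3 genes that fell held a short word from a set searched in the 3′ untranslated region (3′ UTR), though no word was common to all 3. In an earlier examination of these data, 7-base words had been picked because they went with lower genes, so what follows describes that choice and tests nothing. One was ACTGATC, which overlaps in 6 letters with another, CTGATCA. The remaining pair was GCTATCT, which likewise overlaps in 6 letters with CTATCTA. They were searched on the transcript strand in the GENCODE M21 3′ UTRs of protein-coding transcripts. Of 12825 tested genes with an annotated 3′ UTR, 22.4% held at least 1 word. The share was 43.7% of genes called lower, 14.4% of genes called higher and 19.8% of the rest. Among the 10 genes here, 5 held a word: all 3 that fell, with Trp53inp1, which rose, and Sesn1, which did not pass. Trp53, Mdm2, Ccng1, Phlda3 and Cdip1 held none. The sites are shown in the longest annotated 3′ UTR with 10 bases on either side, 5′ to 3′ in DNA letters, and capitals mark the word.
Rrm2b (chromosome 15): ctacaactatCTGATCAaaactcggaa
Tigar (chromosome 6), first site: gctgaaaactGCTATCTAgaaggcacag
Tigar, second site: gaaatacccaGCTATCTgtagtctttg
Zmat3 (chromosome 3), first site: cttttaaaagCTGATCAagtctcagtg
Zmat3, second site: ctttcagtatCTGATCAcccaccaaag
Trp53inp1 (chromosome 4): tcttgagccaCTATCTAattgttcttt
Sesn1 (chromosome 10): aggaaaacagGCTATCTtttgatgtgc
Rrm2b and Zmat3 carried CTGATCA, and Tigar carried GCTATCT at both sites, running on into CTATCTA at the first. Trp53inp1 carried only CTATCTA and Sesn1 only GCTATCT. The longest 3′ UTRs of the 10 genes had a median of 2537 bases against 1211 for all tested genes with one. The median was 1444 for genes called lower, 1343 for genes called higher and 1149 for the rest. Among the 10 genes, Zmat3 had 6692 bases, Trp53inp1 4420, Rrm2b 3293 and Tigar 2758, while Trp53 had 565 and Phlda3 727. Cdip1 had 3077 bases and no word. The part of the words in the fall of Rrm2b, Tigar and Zmat3 was not tested.

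Levels were compared between genes only per kilobase of annotated exon. Ccng1 was the most abundant, at 56.0 ± 5.36 CPM per kb in siIRF1 libraries and 62.0 ± 5.06 in siNC libraries (SD, n = 3 each). Phlda3, Mdm2 and Trp53 followed with levels per kb of 26.8, 26.4 and 25.5 in siIRF1 libraries and 27.8, 25.8 and 25.1 in siNC libraries. The siNC libraries of Mdm2 and Trp53 overlapped, and those of Phlda3 lay above both. Rrm2b was the least abundant in both groups, at 0.934 ± 0.126 CPM per kb in siIRF1 libraries and 1.63 ± 0.136 in siNC libraries. Between these lay Trp53inp1, Cdip1, Zmat3, Tigar and Sesn1, all between 2.30 and 5.60 on average in siIRF1 libraries and between 2.97 and 4.09 in siNC libraries, where each overlapped the next in that order. In siIRF1 libraries Trp53inp1 and Cdip1 stood clear of Zmat3. The exon length is the union over all annotated isoforms, which understates the level of genes with rarely used exons.

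**Figure D3:**
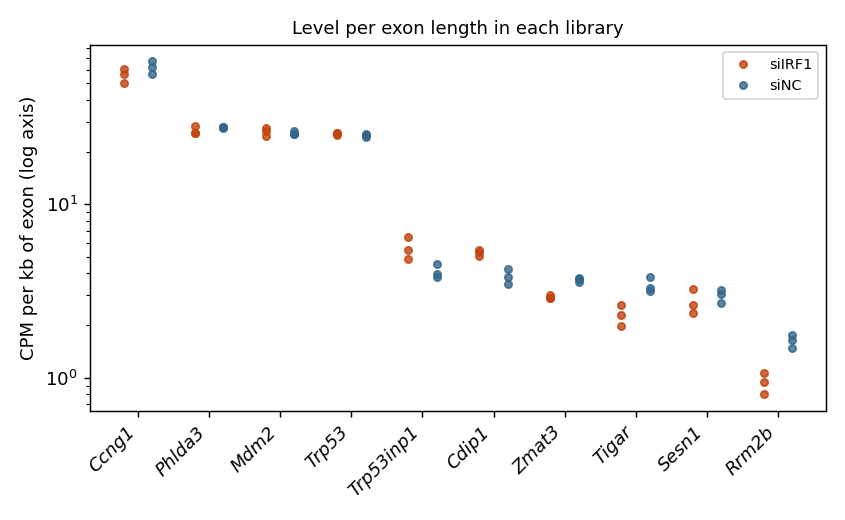
TMM-normalised CPM per kb of annotated exon (vertical axis, log scale) of the 10 genes in each siIRF1 and siNC library, ordered by the siNC mean. Ccng1 stands highest at 56.0 in siIRF1 and 62.0 in siNC libraries, Phlda3, Mdm2 and Trp53 form a step near 26, and Rrm2b is lowest.

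Relatives of the 10 genes were read beside them, from a list of 16 paralogs and partners of which 15 were tested. Of these, 4 fell and 1 rose (33.3%, against 22.4% of all tested genes), with a median log2 fold change of −0.12. Mdm4 and Sesn2 stand on this list and on a list further below. The subunits of ribonucleotide reductase were lower together with Rrm2b. Rrm2, the small subunit used in S phase, had 158, 166 and 155 CPM in siIRF1 libraries, against 214, 206 and 241 CPM in siNC libraries, and fell by 0.46 in log2 terms (adjusted p = 9.57e-05 in edgeR). Rrm1, the large subunit that pairs with either small one, fell by 0.17 (adjusted p = 0.044 in edgeR), a call lost in 8 of 12 alternatives, DESeq2 among them (adjusted p = 0.053).

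Sesn3, a relative of Sesn1, had 61.7, 68.1 and 64.8 CPM in siIRF1 libraries, against 96.4, 84.4 and 84.5 CPM in siNC libraries, and fell by 0.45 in log2 terms (adjusted p = 1.66e-04 in edgeR). Sesn2, which is induced by p53 and by other stresses, gave a log2 fold change of 0.04 (95% interval −0.12 to 0.20, adjusted p = 0.739 in edgeR) and, like Sesn1, did not pass. Whether the sestrins differ from each other in response was not tested. Trp53inp2, the relative of Trp53inp1 that acts in autophagy and transcription, stood at 44.2, 48.3 and 49.3 CPM in siIRF1 libraries, against 63.8, 65.7 and 58.2 CPM in siNC libraries. It fell by 0.40 in log2 terms (adjusted p = 4.01e-04 in edgeR), while Trp53inp1 rose. Rrm2, Sesn3 and Trp53inp2 each held at least 1 of the words above in the 3′ UTR, as did Mdm4, which did not pass, and Rrm1, Sesn2, Ccng2 and Phlda2 held none. Beyond these, among the wider p53 targets and regulators named below, only Sulf2, which rose, held a word. Bax, Gtse1, Pmaip1, Tnfrsf10b, Polk, Prkab1, Dcxr, Atr, Ppp1r13l and Hipk2 all fell and held none. Ptprv, which also fell, had no annotated 3′ UTR to search.

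The other relatives were mostly below the threshold. Mdm4, the partner of Mdm2 that masks the p53 activation domain, had a log2 fold change of −0.05 (95% interval −0.18 to 0.08, adjusted p = 0.603 in edgeR), and Ccng2, the relative of Ccng1, had −0.12 (95% interval −0.28 to 0.04, adjusted p = 0.281). Phlda2, an imprinted relative of Phlda3 that restrains placental growth, rose 1.78-fold to 4.33 ± 0.651 CPM in siIRF1 libraries, against 2.42 ± 0.330 CPM in siNC libraries (SD, n = 3 each; adjusted p = 0.00252 in edgeR). It rested on 99 to 107 counts per siIRF1 library and 61 to 76 per siNC library.

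**Figure D4:**
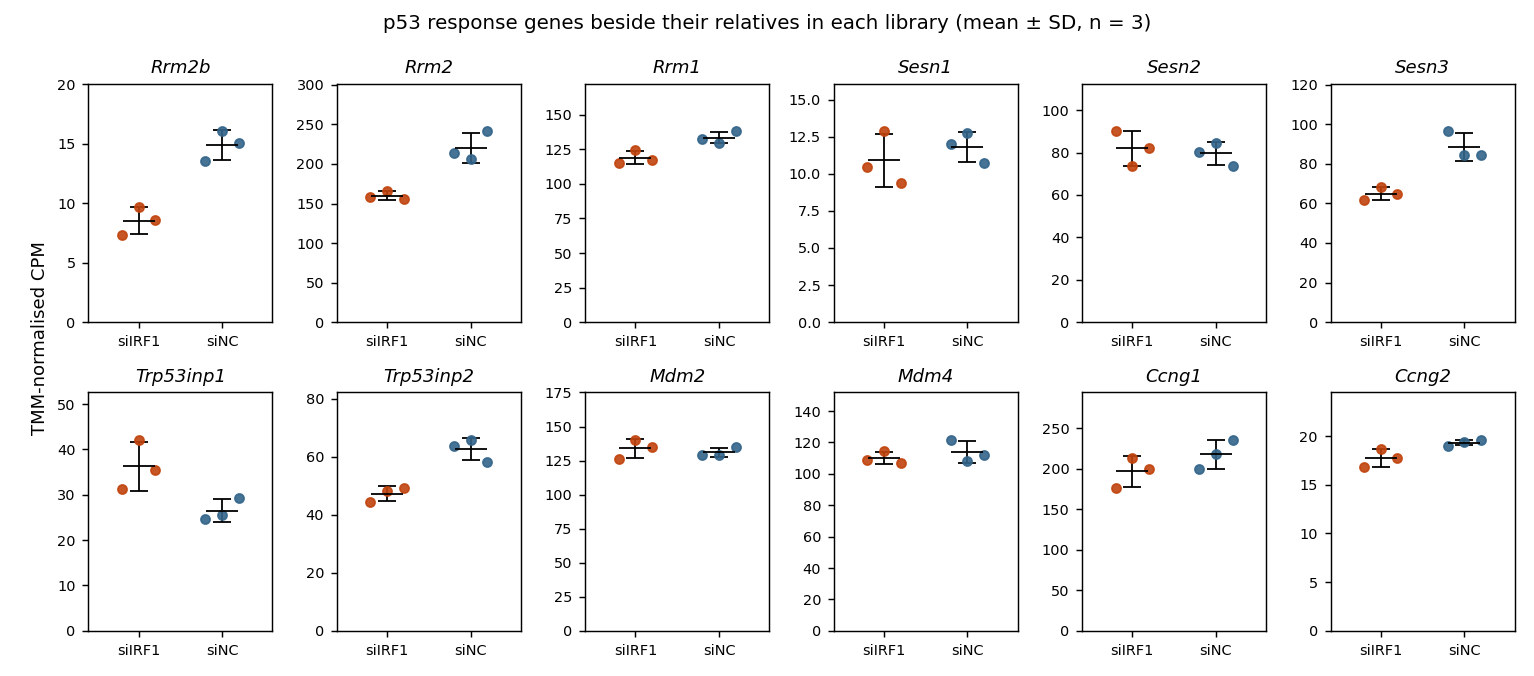
TMM-normalised CPM (vertical axes, each starting at 0) of 5 of the 10 genes and 7 of their relatives in the 3 siIRF1 and 3 siNC libraries; points are libraries, the wide bar is the mean and the whiskers are 1 SD. Rrm2b, Rrm2 and Rrm1 are all lower in siIRF1 libraries, Sesn3 is lower while Sesn1 and Sesn2 overlap, and Trp53inp1 and Trp53inp2 lie on opposite sides.

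A wider set of 51 known p53 targets was counted next, all of them tested. Of these, 9 fell and 3 rose (23.5%, against 22.4% of all tested genes), with a median log2 fold change of −0.03. That share is near the background. The counts moved when single libraries were removed: without siIRF1 replicate 3 they were 3 lower and 1 higher, and without siNC replicate 1 or siNC replicate 2 they were 5 lower. Calls over all tested genes also dropped without siIRF1 replicate 3, from 1767 lower and 1522 higher to 1276 and 959. Without siNC replicate 1 or 2, the genes called lower over all tested genes numbered 1459 and 1332.

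Of 13 arrest genes, 2 rose and 2 fell (30.8%, against 22.4% of all tested genes). Cdkn1a, which encodes the cyclin-dependent kinase inhibitor p21 and is the standard readout of p53 activity, stood at 190.3, 193 and 208 CPM in siIRF1 libraries, against 177, 205 and 185 CPM in siNC libraries. The groups overlapped, and its log2 fold change of 0.06 had a 95% interval of −0.07 to 0.20 (adjusted p = 0.536 in edgeR). Btg2, an antiproliferative factor, rose by 0.38 in log2 terms (adjusted p = 0.0129), with siIRF1 libraries at 40.7, 33.4 and 29.0 CPM, against 25.3, 26.9 and 26.7 CPM in siNC libraries. Rap2b, a small GTPase, rose by 0.27 (adjusted p = 0.0248 in edgeR). Gtse1, which binds microtubules and takes p53 out of the nucleus, fell by 0.24 (adjusted p = 0.018), and Ptprv, a phosphatase gene that p53 induces in mouse, fell by 0.47 (adjusted p = 0.0182 in edgeR). The calls of Rap2b, Gtse1 and Ptprv were each lost without some single library (largest adjusted p 0.109, 0.0916 and 0.0908).

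Of 16 cell death genes, 3 fell and 0 rose (18.8%, below the 22.4% of all tested genes). Pmaip1, which encodes the BH3-only protein Noxa, had 28, 50 and 33 counts in siIRF1 libraries, against 90, 80 and 75 counts in siNC libraries, a log2 fold change of −0.92 (SE 0.20, adjusted p = 0.0035 in edgeR). Tnfrsf10b, the death receptor for TRAIL, fell by 0.23 (adjusted p = 0.0143), to 61.9 ± 1.53 CPM in siIRF1 libraries, against 72.6 ± 4.97 CPM in siNC libraries (SD, n = 3 each). Bax, the pore-forming BCL2 family member, fell by 0.21 (adjusted p = 0.0234 in edgeR). The call of Bax was lost without siIRF1 replicate 2 or 3 or siNC replicate 2 or 3 (adjusted p up to 0.0975), and that of Tnfrsf10b without siNC replicate 3 (0.0724).

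Of 7 repair targets, Polk, a polymerase that copies past damaged bases, was the only call (14.3%). It fell by 0.28 (adjusted p = 0.0421 in edgeR), which 6 of 12 alternatives did not keep (adjusted p up to 0.142). Of 15 targets in metabolism, autophagy and secretion, 3 fell and 1 rose (26.7%, against 22.4% of all tested genes). Sulf2, an extracellular sulfatase, rose by 0.28 (adjusted p = 0.0096 in edgeR), a call lost without siIRF1 replicate 3 (0.0781). Prkab1, a subunit of AMP-activated kinase, fell by 0.23 (adjusted p = 0.0288 in edgeR) and Dcxr, a xylulose reductase, by 0.45 (adjusted p = 0.0444 in edgeR). The call of Prkab1 was lost in 5 of 12 alternatives (adjusted p up to 0.136) and that of Dcxr in 7 (up to 0.176).

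Upstream of p53, 3 of 22 tested regulators fell and 1 rose (18.2%, against 22.4% of all tested genes), with a median log2 fold change of −0.03. Atr, the kinase that answers stalled replication forks, had 32.0, 38.4 and 34.4 CPM in siIRF1 libraries, against 42.2, 43.1 and 45.5 CPM in siNC libraries, and fell by 0.32 in log2 terms (adjusted p = 0.00567 in edgeR). Ppp1r13l, which encodes the p53 inhibitor iASPP, fell by 0.36 (adjusted p = 0.0100), and Hipk2, a kinase that activates p53, by 0.43 (adjusted p = 0.0187 in edgeR). The call of Hipk2 was lost without siIRF1 replicate 1, siNC replicate 1 or siNC replicate 3 (adjusted p up to 0.0707). Rpl11, a ribosomal protein that can hold Mdm2 off p53, rose by 0.20 (adjusted p = 0.0433 in edgeR); ribosomal protein genes have many pseudogenes that can share reads, and 4 of 12 alternatives did not keep the call (adjusted p up to 0.217).

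**Figure D5:**
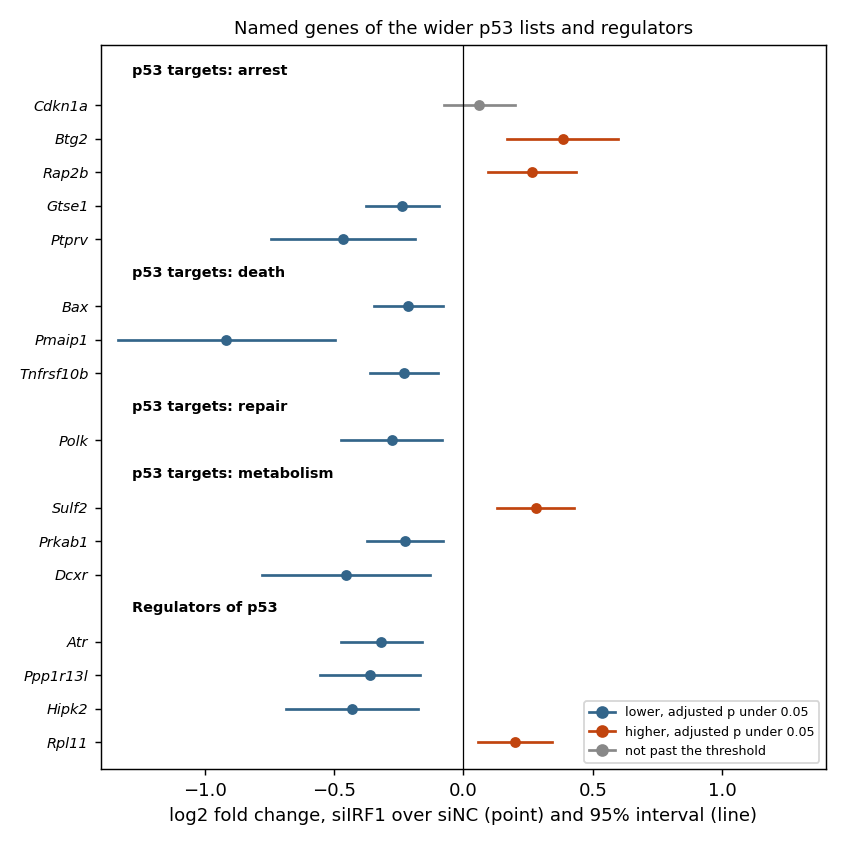
Log2 fold change of siIRF1 over siNC (horizontal axis; points, with lines for 95% intervals from the edgeR fit) for Cdkn1a and the named changed genes of the wider p53 target lists and the p53 regulators. Most points lie left of 0, with Pmaip1 at −0.92, while Btg2, Sulf2, Rap2b and Rpl11 lie to the right and the interval of Cdkn1a crosses 0.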

How the data were processed

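The deposited files hold whole-number read counts, not normalised, 1 file for each library, and name each gene by symbol and Ensembl identifier. Reads were trimmed with Trimmomatic 0.39 and aligned with STAR, and GRCm39 (mm39) is the build listed, per the submitters' processing notes. Counting tool, annotation release and strand setting: not given in the sources used here. The library kit keeps strand and selects mRNA, per the labels' protocols.

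Differential expression was computed with edgeR 4.0.16 (R 4.3.3): filterByExpr by group, TMM scaling, glmQLFit with the robust option and glmQLFTest (two-sided), with group as the only term and all 6 libraries. P-values were adjusted by Benjamini and Hochberg over 14683 genes. Standard errors are the absolute log2 fold change over the square root of F. DESeq2 1.42.0 was an alternative. The script was tested on simulated counts. Replicates of a group differed beyond counting error (chi-square per degree of freedom 5.35 to 15.2). Each library counted as 1 sample. That spread may be technical, so it does not show that the libraries are independent samples.

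Exon lengths and 3′ UTRs came from GENCODE M21 and promoters from RefSeq, both of GRCm38 and used by identifier or symbol only. The 10 genes, Irf1, Cdkn1a, Bax and a few relatives were named whatever their result. For each list, the changed genes lowest in adjusted p, at most 4, were named too. Hapln1, Col2a1, the fibroblast, osteoblast, macrophage and skeletal muscle markers, Hmox2 and Trp53-ps were named after their values were seen. A gene that the rule names is counted but not reported here. The 10 genes and all lists were chosen with earlier results of these data known.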

Additional observations from a re-analysis of the deposited data

How the results depend on the processing

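Among Trp53 and its 9 response genes, 3 were lower and 2 higher under all 12 alternatives. The direction of Mdm2, which was not called, turned without siIRF1 replicate 2 (log2 fold change −0.0014, and −0.0014 to 0.072 over single removals), and that of Sesn2 without siIRF1 replicate 1 (−0.032) or siNC replicate 3 (−0.013), with −0.032 to 0.11 over single removals. Over single removals, the number of all genes called higher ranged from 959 to 1398, of wider p53 targets from 3 to 8 lower and from 1 to 4 higher, and of p53 regulators from 2 to 5 lower and from 0 to 1 higher. With no filter 5 regulators were lower, and with upper-quartile scaling, with DESeq2 and with the replicate block 2 were higher. The cause was not tested. Of the 21 other named genes that were called, 9 kept their call under every alternative.

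Whether the replicate numbers pair the samples is not known here. The correlation of same-numbered deviations from the group means was 0.258, −0.0729 and 0.0641. With so few libraries in a group these deviations depend on each other, so the correlations cannot decide it. Not every library correlated best with its own number. With the replicate block, 1984 genes were lower and 1744 higher, against 1767 and 1522 without it, and the calls among the 10 genes were the same 3 lower and 2 higher. Depth limits the rarest genes most: Pmaip1 and Phlda2 rested on at most 107 counts per library.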
